A study of Mus musculus with 32 samples.

Results

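The libraries labelled MEP were compared with those labelled CMP, both sorted from the bone marrow of the same 8 mice. These 16 libraries, 8 per gate, were taken by their labels from a series of 32 RNA-seq libraries that also holds the LSK and GMP gates, and each MEP library was paired with the CMP library of its own animal. All 8 mice carried floxed Cxadr alleles (Cxadr fl/fl), Cxadr being the gene of a cell adhesion protein that also serves as a virus receptor. The 4 control mice were Mx1-Cre- and the 4 Cxadr-ko mice were Mx1-Cre+. In the Cxadr-ko mice Cre is driven by the interferon-inducible Mx1 promoter, which is active in many cell types besides blood progenitors. The labels give neither the age of the mice, an inducing agent nor the antibodies of the sort. Cells went straight into TRIzol, and the libraries were made from total RNA with a low-input NEBNext kit. The comparison asks how far the 2 gates differ, and whether control and Cxadr-ko mice show the same differences.

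Common myeloid progenitors (CMP) give rise to granulocyte-monocyte progenitors (GMP) and to megakaryocyte-erythroid progenitors (MEP), which go on to form platelets and red cells. LSK cells (lineage-negative, Sca-1-positive, Kit-positive) lie upstream of all of these and hold the stem cells. In mouse bone marrow CMP and MEP are usually set apart by the surface protein CD34 and by the Fc receptors CD16/32, and a gate drawn this way can hold cells of several fates. MEP are known for Klf1, Gata1 and Epor, while CMP and GMP are known for Mpo and Flt3 or Csf1r.

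Per library 8744480 to 12201983 reads were assigned to genes in the 16 libraries. Values are normalized counts, reads divided by 1 size factor per library, in which 1 read stood for 0.814 to 1.28 over the 32 libraries. Total reads, the number of genes with a read, and the shares of mitochondrially encoded, haemoglobin, immunoglobulin and ribosomal protein reads did not pass an exact sign-flip permutation test between the gates (adjusted p 0.398 to 0.969, two-sided). The spread between mice was large for markers of some mature cells. Summed over 5 mature neutrophil markers (S100a8, S100a9, Ltf, Camp and Ngp), the CMP libraries ran from 1171 to 101855 and the MEP libraries from 375 to 108277. The highest were the CMP library of Cxadr-ko mouse 2 and the MEP library of control mouse 3, so the values below are given without these 2 mice where they matter.

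Cxadr itself (ENSMUSG00000022865, chromosome 16, 78301489 to 78359774, mm10) was read sparsely. In the CMP gate it stood at 18.6, 27.4, 17.2 and 30.7 normalized counts in control mice 1 to 4 and at 38.7, 25.8, 14.2 and 39.5 in Cxadr-ko mice 1 to 4. In the MEP gate the control mice had 6.67, 27.7, 7.09 and 10.3 and the Cxadr-ko mice 15.5, 2.94, 0 and 5.95. The genotypes overlapped in both gates, and since the sources used here do not name the deleted part of the gene, gene-level reads are no check of the deletion. The log2 difference between the gates, -1.81 ± 0.41 (SE, 8 mice), was not called (limma adjusted p = 0.081).

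The gate labels were held against their defining markers. Over 11 erythroid markers the summed normalized count was 2767 to 4708 in MEP libraries and 2335 to 3362 in CMP libraries, against 8105 to 12689 in LSK libraries and 467 to 1285 in GMP libraries. Most of the MEP and LSK sums was Car2, a carbonic anhydrase, which had a mean of 3471 in MEP and 10216 in LSK. Within a mouse the erythroid sum was higher in MEP than in CMP in 8 of 8 mice, by 1.16-fold to 1.45-fold, and so was the sum without Car2 (median 160 in CMP and 252 in MEP). The sum of 8 megakaryocyte markers was likewise higher in MEP in 8 of 8 mice, by 1.11-fold to 1.76-fold, at 411 to 696 in CMP and 527 to 835 in MEP against 595 to 896 in LSK libraries. Klf1, the master transcription factor of red cell genes, had 47.6 to 207 normalized counts in MEP, 28.8 to 98.4 in CMP and 57.1 to 221 in GMP libraries, ranges that overlap. Mpo, the myeloperoxidase of granulocyte progenitors, was at 39048 to 60741 in MEP libraries and 6719 to 12690 in LSK libraries, with no overlap. Its mean was 48429 in MEP and 165712 in GMP. The receptor gene Flt3 and Cd34 were at means of 1120 and 8638 in the MEP gate. The libraries labelled MEP thus exceeded the CMP libraries of the same mice in these sums by at most 1.76-fold. Their Mpo lay above that of LSK and below the GMP mean. MEP below therefore means the sort label only. In bulk libraries fewer cells of a type and less RNA per cell cannot be told apart.

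The 2 gates were the most alike pair of the 4 by the number of genes that differed. Of 17032 genes tested with limma (log2 of the normalized count plus 1, mouse as block), 129 passed an adjusted p under 0.05 in the 8 mice, which is 0.757% of genes. Calls are counted at this threshold throughout. The same test called 14.5% of genes between GMP and MEP, 20.1% between CMP and GMP, 34.9% between LSK and MEP, 40.4% between LSK and CMP and 50.1% between LSK and GMP. Of the 129 genes, 73 were higher in MEP (0.429%) and 56 lower (0.329%). All 8 mice showed the direction for 119 of them and 7 of 8 mice for the other 10. The higher genes moved further, with a median of 0.74 on the log2 scale and 31 of 73 over 1, while the median size of the 56 lower ones was 0.26 and 1 of them exceeded 1. Leaving out 1 mouse left 54 to 93 calls. The count moved by more than 1.5 times without each mouse other than Cxadr-ko mouse 2, to 54, 55, 62 and 79 without control mice 1 to 4 and to 63, 77 and 77 without Cxadr-ko mice 1, 3 and 4. Without control mouse 3 and Cxadr-ko mouse 2 together it was 74. Without the mouse as block it was 1.

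**Figure D1:**
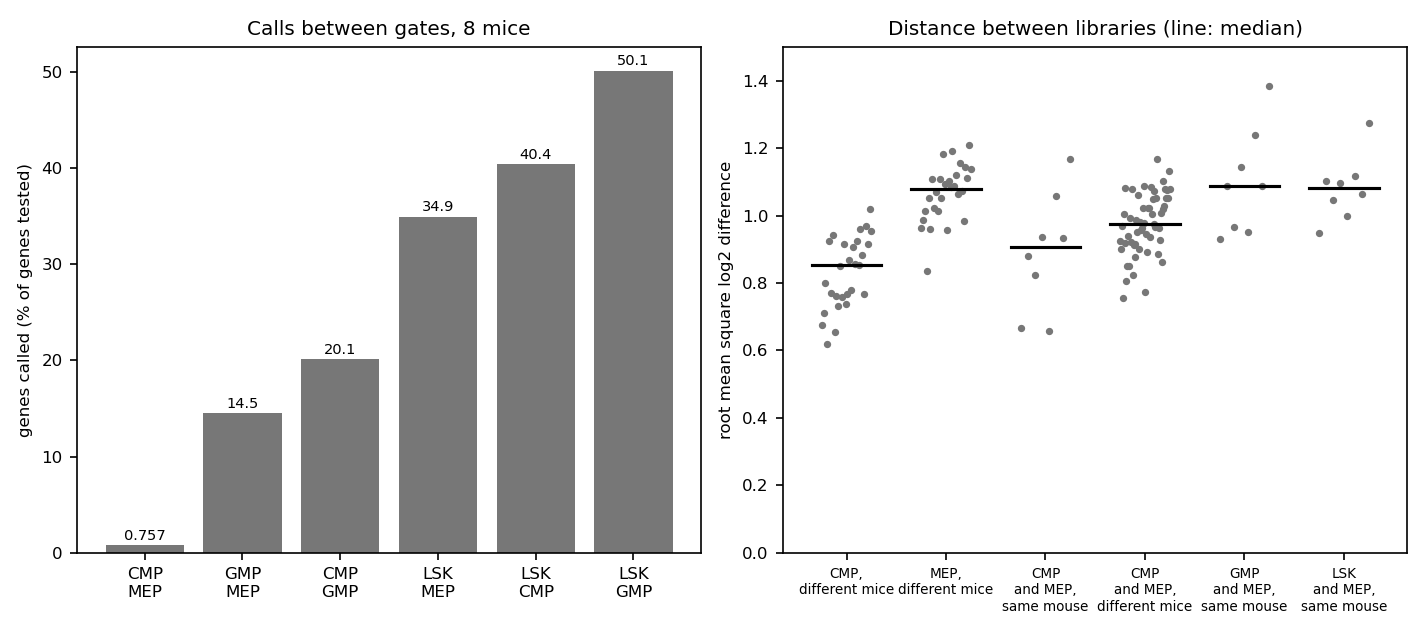
Left, percent of genes called between each pair of gates (limma, mouse as block, 8 mice). Right, root mean square log2 difference between pairs of libraries (1 point per pair, line at the median). CMP and MEP differ in 0.757% of genes, and 2 MEP libraries of different mice lie further apart (median 1.08) than the CMP and MEP libraries of 1 mouse (median 0.907).

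By the distance between whole libraries the gates were ordered less clearly. The root mean square log2 difference over the 17032 genes was 0.657 to 1.17 (median 0.907) between the CMP and MEP libraries of 1 mouse. The median was 0.931 between CMP and GMP and 0.930 between LSK and CMP libraries of 1 mouse, and it was 1.08 to 1.23 for the other 3 pairs of gates. CMP lay closer to GMP than to MEP in 1 of 8 mice and closer to LSK than to MEP in 3 of 8. The distance was 0.834 to 1.21 (median 1.08) between MEP libraries of different mice and 0.619 to 1.02 (median 0.852) between CMP libraries of different mice. All 8 MEP libraries had a CMP library as their nearest of the 15 others in these gates, in 4 cases that of their own mouse, and all 8 CMP libraries also had a CMP library as the nearest. Low counts weigh on this distance, so it holds counting error as well as differences between mice.

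The gene of lowest p was Id2 (ENSMUSG00000020644, chromosome 12, 25093799 to 25097140, minus strand, mm10). It encodes an inhibitor of E-protein transcription factors and is needed for innate lymphoid cells, natural killer cells and some dendritic cells. In the CMP gate it stood at 870, 701, 688 and 433 normalized counts in control mice 1 to 4 and at 1584, 667, 1176 and 834 in Cxadr-ko mice 1 to 4. In the MEP gate the same animals had 2207, 1995, 1713 and 1276, and 4468, 1967, 3042 and 2532. Both gates varied over mice by about the same factor, 3.66 from the lowest to the highest CMP library and 3.5 in MEP, so the groups overlapped. The ratio within a mouse varied less, from 2.49-fold to 3.03-fold, and was above 1 in 8 of 8 mice. The log2 difference was 1.47 ± 0.05 (SE, limma adjusted p = 2.7e-08). Its mean was 2400 in the MEP libraries and 869 in the CMP libraries. The LSK and GMP gates had means of 902 and 844.

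Cd74, the phospholipase-like Plbd1 and 3 MHC class II genes, H2-Eb1, H2-Aa and H2-Ab1, followed in the order of p. MHC class II genes encode the molecules that dendritic cells, B cells and macrophages use to present peptides to helper T cells. Their promoters share a conserved module whose X box binds the RFX complex and whose Y box binds NF-Y, and the coactivator CIITA is recruited to it. Promoter stretches of 250 bases before the transcription start were read from RefSeq (GRCm38.p6), and those of H2-Aa and H2-Eb1 are shown because both genes were called and carry parts of this module. Capitals mark the Y box core TGATTGG and the X box, here CTAGCAACTGATGATGC with any base allowed at the fifth position, both searched on both strands.
H2-Aa, chr17:34287824-34288073, minus strand: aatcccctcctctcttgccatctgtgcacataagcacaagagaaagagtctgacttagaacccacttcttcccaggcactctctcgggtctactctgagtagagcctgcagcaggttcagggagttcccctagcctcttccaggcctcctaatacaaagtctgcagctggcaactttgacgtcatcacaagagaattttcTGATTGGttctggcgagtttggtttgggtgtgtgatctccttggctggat
H2-Eb1, chr17:34305617-34305866, plus strand: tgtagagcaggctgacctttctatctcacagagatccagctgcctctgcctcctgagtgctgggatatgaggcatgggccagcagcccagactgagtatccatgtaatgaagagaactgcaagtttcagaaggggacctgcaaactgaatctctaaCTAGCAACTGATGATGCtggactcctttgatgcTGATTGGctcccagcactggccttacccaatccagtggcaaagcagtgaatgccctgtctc
The Y box core began 50 bases before the start in H2-Aa and 61 bases in H2-Eb1, and the X box letters 94 bases before it in H2-Eb1. H2-Aa had no match to these X box letters, and an X box of other letters was not searched for. Of all 32851 promoters of this length, 7.23% held the Y box core and 2 held the X box letters, those of H2-Eb1 and H2-DMb1. The X box letters searched for are those of H2-Eb1 itself, and H2-DMb1 differs from them only at the base left free. The match of these 2 promoters was therefore built into the letters, and the count does not measure how rare an X box is. All matches given here are of letters only. Of 7 genes looked up, the table held H2-Aa, H2-Eb1, H2-DMa and H2-DMb1.

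H2-Aa, the alpha chain of the class II molecule I-A, had 1569, 922, 1127 and 652 normalized counts in the CMP gate of control mice 1 to 4 and 2501, 531, 1491 and 1990 in Cxadr-ko mice 1 to 4. In the MEP gate it had 3330, 3485, 2793 and 1824, and 7644, 2920, 6504 and 5537. Each mouse was higher in MEP, by 2.12-fold to 5.49-fold, although the MEP library of control mouse 4 lay below the 2 highest CMP libraries. The log2 difference was 1.68 ± 0.13 (limma adjusted p = 0.00011). H2-Ab1, the partner beta chain, ran from 1740 over a median of 3269 to 6270 in CMP and from 4273 over 7993 to 18752 in MEP, a log2 difference of 1.53 ± 0.12 (adjusted p = 0.00011). H2-Eb1, the beta chain of I-E, ran from 253 over 573 to 1250 in CMP and from 969 over 1416 to 3355 in MEP (1.62 ± 0.11, adjusted p = 4e-05). Cd74, the invariant chain that escorts class II molecules through the cell, ran from 3505 over 7569 to 15099 in CMP and from 11658 over 20220 to 46858 in MEP (1.64 ± 0.08, adjusted p = 3e-06). The groups of all 3 genes overlapped, and in each of them all 8 mice were higher in MEP. The class II genes are related in sequence, and the sources used here do not say how reads shared among them were counted.

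**Figure D2:**
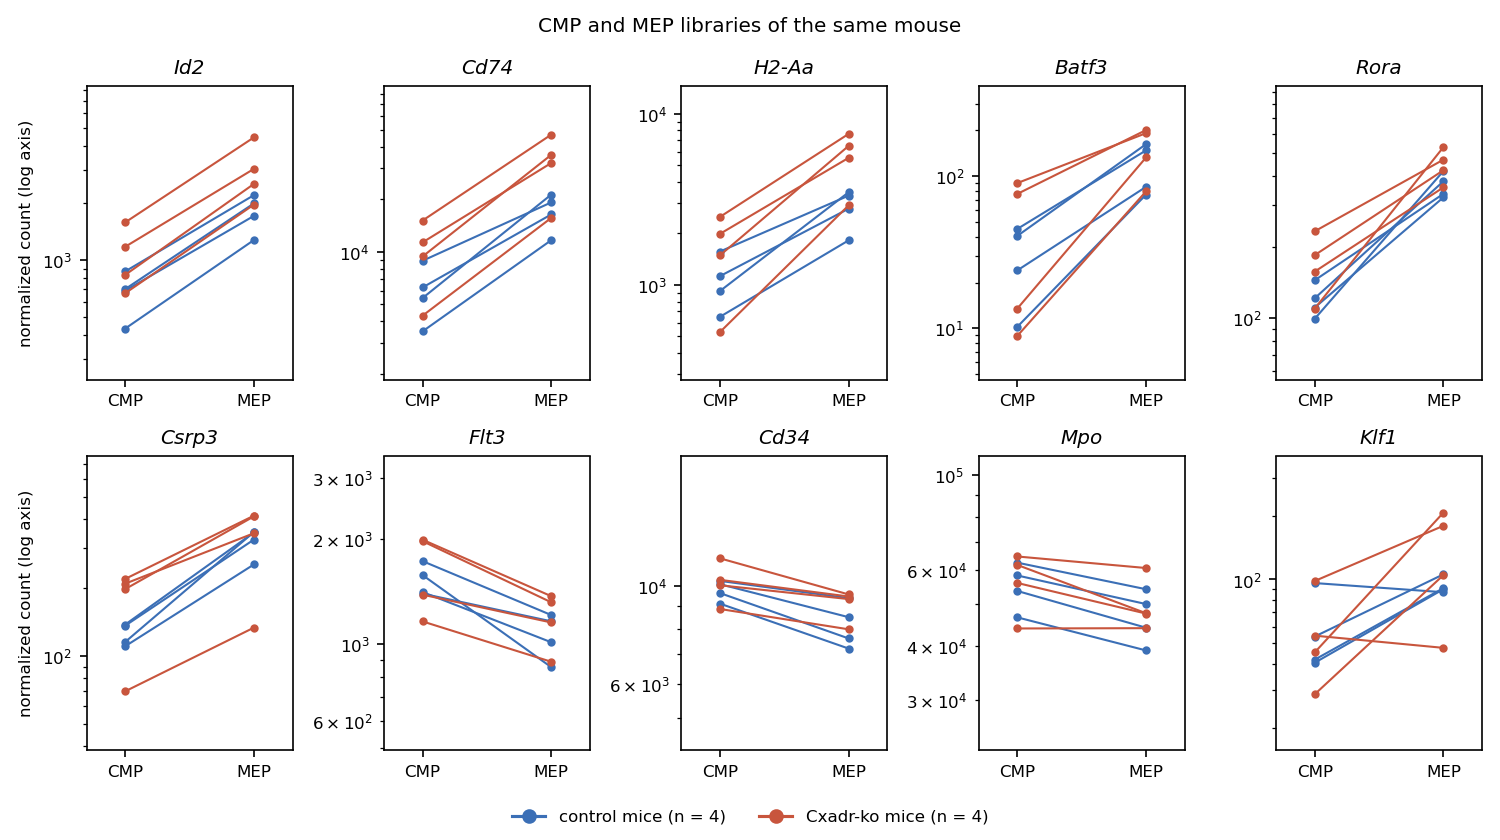
Normalized counts (log axes that differ between panels) of 10 genes in the CMP and MEP libraries, with a line for each mouse, control mice in blue and Cxadr-ko mice in red. For Id2, Cd74 and H2-Aa the lines of all 8 mice rise while the mice differ from each other by up to 4.71-fold within a gate, for Flt3 and Cd34 all 8 fall, and for Klf1 6 of 8 rise.

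The list of dendritic cell and MHC class II genes had 18 of 20 members tested. In the MEP gate 7 were called higher and 1 lower, against 0.429% and 0.329% of all genes tested. The list's median log2 difference was 0.80 against -0.01 over all genes tested. The 7 were Cd74, H2-Eb1, H2-Aa, H2-Ab1, Batf3, H2-DMb1 and Ciita. Batf3, a transcription factor of cross-presenting dendritic cells, ran from 8.93 over 32.3 to 90.1 in CMP and from 75.6 over 140 to 201 in MEP (2.11 ± 0.25, adjusted p = 0.0023). Ciita, the class II coactivator, ran from 19.8 over 65.6 to 175 and from 79.4 over 141 to 290 (1.22 ± 0.18, adjusted p = 0.01). H2-DMb1, a subunit of the peptide-loading factor, had a smaller log2 difference of 0.52 ± 0.06 (adjusted p = 0.002). Leaving out each mouse in turn gave 7 higher members each time, and leaving out control mouse 3 and Cxadr-ko mouse 2 gave 6. With no mouse term the count was 0.

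The 1 member that was lower was Cox6a2, a respiratory chain subunit that in blood cells is known from plasmacytoid dendritic cells. It ran from 98.2 over 220 to 363 in CMP and from 62.7 over 125 to 193 in MEP, a log2 difference of -0.69 ± 0.10 (adjusted p = 0.0085). It was lower in MEP in 8 of 8 mice, and the groups overlapped. The summed level of 5 dendritic markers (H2-Aa, H2-Ab1, Cd74, Siglech and Cd209a) was 6031 to 23974 in CMP and 17817 to 73400 in MEP, and none of the 5 was at 0 throughout a gate. Nearly all of it came from the 3 class II pathway genes already described, with means of 12887 in CMP and 39327 in MEP. Siglech, a lectin of plasmacytoid dendritic cells, and Cd209a, a lectin of monocyte-derived dendritic cells, together had means of 136 and 129, and neither was called (-1.02 ± 0.81 and 1.75 ± 0.74 on the log2 scale, limma adjusted p = 0.63 and 0.34). The same sum was 7703 to 56139 in LSK and 7624 to 38369 in GMP libraries. Whether mature dendritic cells took part in the difference was not tested.

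Other genes of lowest p pointed the same way in all 8 mice. Plbd1, a phospholipase B-like protein, ran from 185 over 414 to 831 in CMP and from 557 over 1004 to 2479 in MEP (1.51 ± 0.09, adjusted p = 1.7e-05). Cst3, the protease inhibitor cystatin C, which is abundant in dendritic cells, ran from 5833 over 7336 to 10195 and from 8983 over 11528 to 18617 (0.69 ± 0.06, adjusted p = 0.00036). The actin-binding Lsp1 and Tmsb10 and the LIM-domain protein gene Crip1 had log2 differences of 0.48 ± 0.04, 0.28 ± 0.02 and 0.56 ± 0.05. The groups of these 5 genes overlapped. Aif1, a calcium-binding protein of macrophages, had a log2 difference of 1.76 ± 0.20 and varied 8.91-fold over the CMP libraries. Ccr2, the chemokine receptor of inflammatory monocytes, ran from 525 over 911 to 1704 in CMP and from 1091 over 1606 to 3519 in MEP (0.85 ± 0.10, adjusted p = 0.003). It was the only called member of 9 tested monocyte and macrophage genes, against 0.429% of all genes called higher in MEP.

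Lymphocyte genes also held calls. Of 27 T cell, natural killer cell and innate lymphoid genes 22 were tested. Of these 6 were called higher in MEP and 0 lower, against 0.429% and 0.329% of all genes tested. The median log2 difference was 0.95, and 21 of 22 values were above 0, against 8083 of the 17032 genes tested. Rora, a nuclear receptor required for type 2 innate lymphoid cells, ran from 99.6 over 133 to 233 normalized counts in CMP and from 324 over 399 to 528 in MEP. Its groups did not overlap, and the log2 difference was 1.51 ± 0.14 (limma adjusted p = 0.0004). Gata3, which directs T helper and innate lymphoid cells, ran from 230 over 350 to 476 and from 397 over 537 to 1022 (0.74 ± 0.11, adjusted p = 0.015). Its mean in LSK was 902, above both.

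The T cell receptor genes were read at lower levels. Trbc2, a constant region of the beta chain, ran from 27.5 over 75.3 to 165 in CMP and from 130 over 177 to 267 in MEP (1.50 ± 0.25, adjusted p = 0.021). Trbc1, its near-identical copy, had a log2 difference of 1.79 ± 0.31, and the joining segment Trbj1-1 one of 2.03 ± 0.33. The call of Trbc2 was lost under 6 of 22 alternatives, that of Trbc1 under 10 of 22 and that of Trbj1-1 under 6 of 20. Reads of the 2 constant regions are hard to assign to one copy, so their separate values are uncertain. Cd7, a surface protein of T and natural killer cells, and the chemokine Ccl5 were also called, with 1.42 ± 0.27 (adjusted p = 0.042) and 1.04 ± 0.21 (adjusted p = 0.049), calls lost under 12 and 15 of 22 alternatives. Cd7 and Ccl5, like H2-DMb1 and Ciita, were named after their values were seen.

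This list depended on single mice. Leaving out 1 mouse gave 2 to 6 higher members, and leaving out control mouse 3 and Cxadr-ko mouse 2 gave 4. The summed level of 8 defining markers was 452 to 1204 in CMP and 948 to 1616 in MEP libraries, 1099 to 1733 in LSK and 53.6 to 147 in GMP libraries. None of the 8 markers was at 0 throughout a gate. The part of mature lymphocytes in these differences was not tested.

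**Figure D3:**
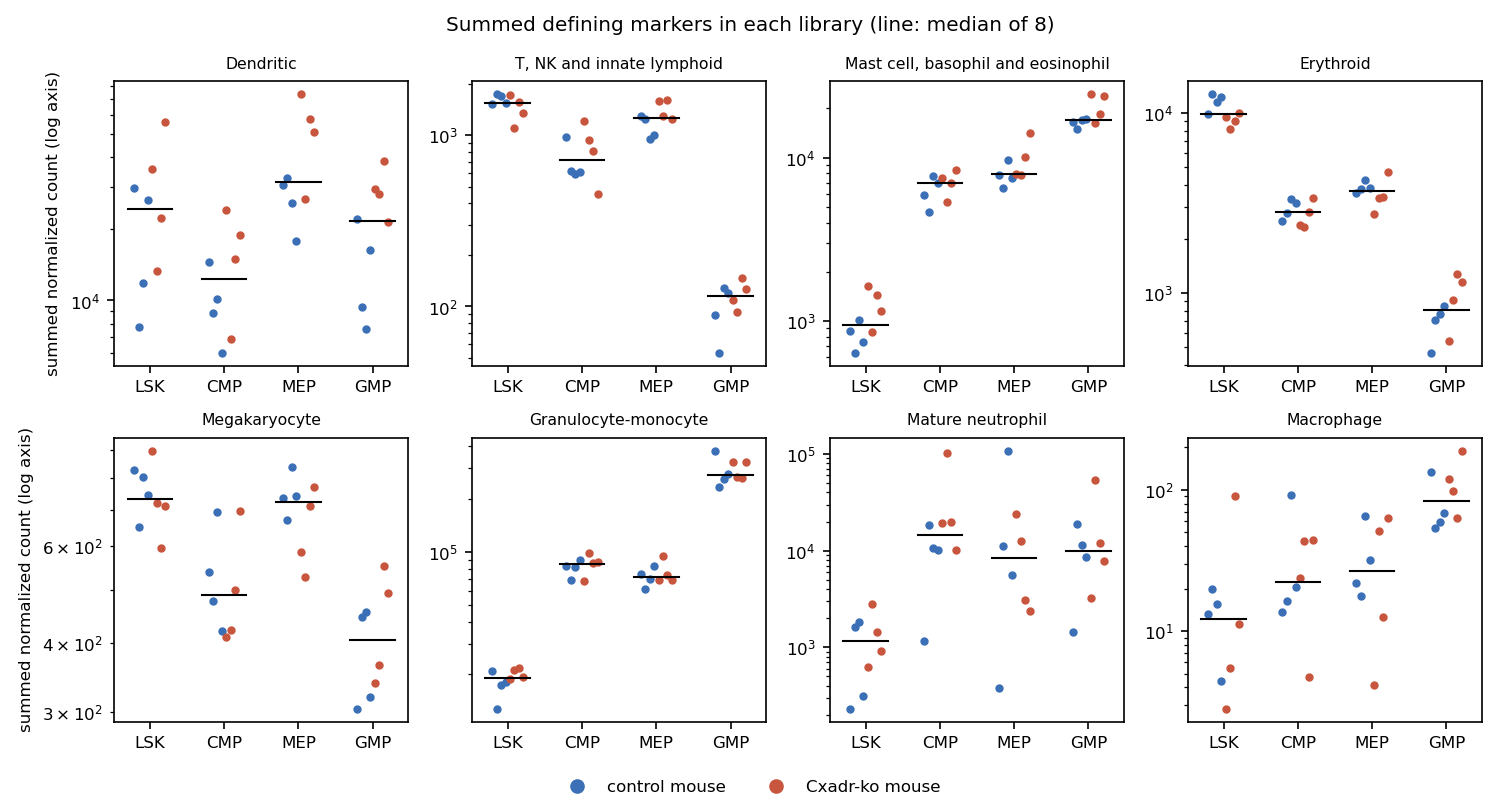
Summed normalized counts of defining markers in each of the 32 libraries (log axes, 1 point per library, line at the median of 8), by gate. Dendritic sums, which are nearly all Cd74, H2-Ab1 and H2-Aa, are 17817 to 73400 in MEP and 6031 to 23974 in CMP. The erythroid sums, which are mostly Car2, are 2767 to 4708 in MEP and 8105 to 12689 in LSK. The neutrophil sums span a wide range in CMP and MEP alike.

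Of 23 mast cell, basophil and eosinophil genes 12 were tested, and the median log2 difference was 0.37. In MEP 3 were called higher and 0 lower, against 0.429% and 0.329% of all genes tested. Csrp3, the gene of a muscle LIM protein that this list holds, ran from 70.0 over 137 to 219 in CMP and from 134 over 349 to 416 in MEP (1.13 ± 0.10, adjusted p = 0.00036). Fcer1a, the alpha chain of the IgE receptor, ran from 159 over 252 to 338 and from 288 over 514 to 716 (0.91 ± 0.14, adjusted p = 0.017). Ms4a2, the receptor's beta chain, ran from 196 over 375 to 500 and from 342 over 483 to 1051 (0.64 ± 0.12, adjusted p = 0.046) and was higher in MEP in 7 of 8 mice, with its call lost under 13 of 22 alternatives. All 3 genes were higher still in GMP, with means of 756, 1063 and 1444. Leaving out 1 mouse gave 1 to 3 called members. The 7 defining markers summed to 4648 to 8382 in CMP and 6519 to 14158 in MEP, none at 0 throughout a gate.

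Erythroid and megakaryocyte genes, the group for which the MEP gate is named, held calls that were few in number. Their share is to be read against all genes tested, of which 0.429% were called higher in MEP and 0.329% lower. Of 30 erythroid genes 19 were tested, 2 were higher in MEP and 0 lower, and the list's median was -0.01, the same as over all genes tested. Taken mouse by mouse, the median over the list was above 0 in 8 of 8 mice (0.0057 to 0.44), and the median over all genes was -0.0089 to 0.0059. Car2 ran from 2071 over 2637 to 3176 in CMP and from 2421 over 3515 to 4411 in MEP (0.38 ± 0.04, adjusted p = 0.0018). Apoe, a lipid carrier protein that mast cells and macrophages also make, had a log2 difference of 0.41 ± 0.06 (adjusted p = 0.0096). Both stayed called when each mouse was left out. Klf1 stood at 53.8, 40.5, 96.2 and 41.9 normalized counts in the CMP gate of control mice and at 54.3, 28.8, 98.4 and 45.3 in Cxadr-ko mice. In MEP it stood at 106, 90.0, 87.1 and 91.1, and at 47.6, 105, 179 and 207. It was higher in 6 of 8 mice and was not called (0.96, 95% interval 0.41 to 1.52, adjusted p = 0.12). Gata1, the other master factor, had a log2 difference of 0.44 (0.13 to 0.74, adjusted p = 0.20). Epor, the erythropoietin receptor, was at 0 to 34.7 in CMP and 6.80 to 36.4 in MEP, too low for a direction.

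Of 17 transcription factors of these lineages 1 was called higher and 1 lower, against 0.429% and 0.329% of all genes tested. Gata2, a factor of stem, megakaryocyte and mast cell progenitors, ran from 260 over 411 to 474 in CMP and from 328 over 654 to 833 in MEP (0.53 ± 0.09, adjusted p = 0.031), higher in 7 of 8 mice. Its call was lost under 13 of 22 alternatives, among them leaving out any 1 mouse other than Cxadr-ko mouse 3 (adjusted p 0.058 to 0.096). Mef2c, a factor of lymphoid and megakaryocyte development, ran from 3759 over 4735 to 5162 and from 2938 over 3681 to 4152 (-0.35 ± 0.04, adjusted p = 0.0023). Of 17 tested megakaryocyte and platelet genes 1 was called, Gp9 of the von Willebrand factor receptor, at 13.9 to 51.1 in CMP and 35.3 to 70.2 in MEP (0.87 ± 0.17, adjusted p = 0.046). Its call was lost under 15 of 20 alternatives. Itga2b, the integrin CD41, was not called at 0.40 (0.20 to 0.60, adjusted p = 0.081), nor was the platelet chemokine Pf4 at 0.34 (-0.35 to 1.04). Of 14 heme synthesis genes limma, edgeR and DESeq2 called 0 each. With limma 0 had an unadjusted p under 0.05, against 13.3% of all genes tested.

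On the lower side Cnn3, an actin-binding calponin, had the lowest p, with 442 over 895 to 1289 in CMP and 247 over 538 to 779 in MEP (-0.67 ± 0.06, adjusted p = 0.00036). Flt3, the receptor for a growth factor of lymphoid, dendritic and multipotent progenitors, ran from 1160 over 1493 to 1996 in CMP and from 856 over 1156 to 1371 in MEP (-0.49 ± 0.07, adjusted p = 0.0057). Both were lower in MEP in 8 of 8 mice, with overlapping groups. Flt3 was at a mean of 2099 in LSK and 591 in GMP.

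Among 28 granulocyte-monocyte genes 1 was called higher and 3 lower, against 0.429% and 0.329% of all genes tested, and the median was -0.08. Csf1r, the receptor of macrophage colony-stimulating factor, ran from 226 over 341 to 365 in CMP and from 133 over 198 to 295 in MEP (-0.68 ± 0.12, adjusted p = 0.026). The call of Csf1r was lost under 9 of 22 alternatives. Clec12a, an inhibitory lectin of myeloid cells, had a log2 difference of -0.30 ± 0.04 (adjusted p = 0.01). Mpo stood at 58355, 46620, 53706 and 62510 in the CMP gate of control mice and at 43928, 64617, 56060 and 61741 in Cxadr-ko mice. In MEP it stood at 50071, 39048, 44110 and 54215, and at 43998, 60741, 47576 and 47670. MEP libraries thus kept 86.6% of the CMP mean, 7 of 8 mice were lower, and the call (-0.21 ± 0.03, adjusted p = 0.019) was lost under 9 of 22 alternatives. Nkg7, a granule protein of cytotoxic cells that the GMP gate also expressed (mean 11871), was the 1 member higher in MEP (0.24 ± 0.04, adjusted p = 0.021). That call was also lost under 9 of 22 alternatives. Elane, neutrophil elastase, had a log2 difference of -0.03 (-0.32 to 0.27). Leaving out 1 mouse left 1 to 3 of the 3 lower genes, and leaving out control mouse 3 and Cxadr-ko mouse 2 left 0.

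**Figure D4:**
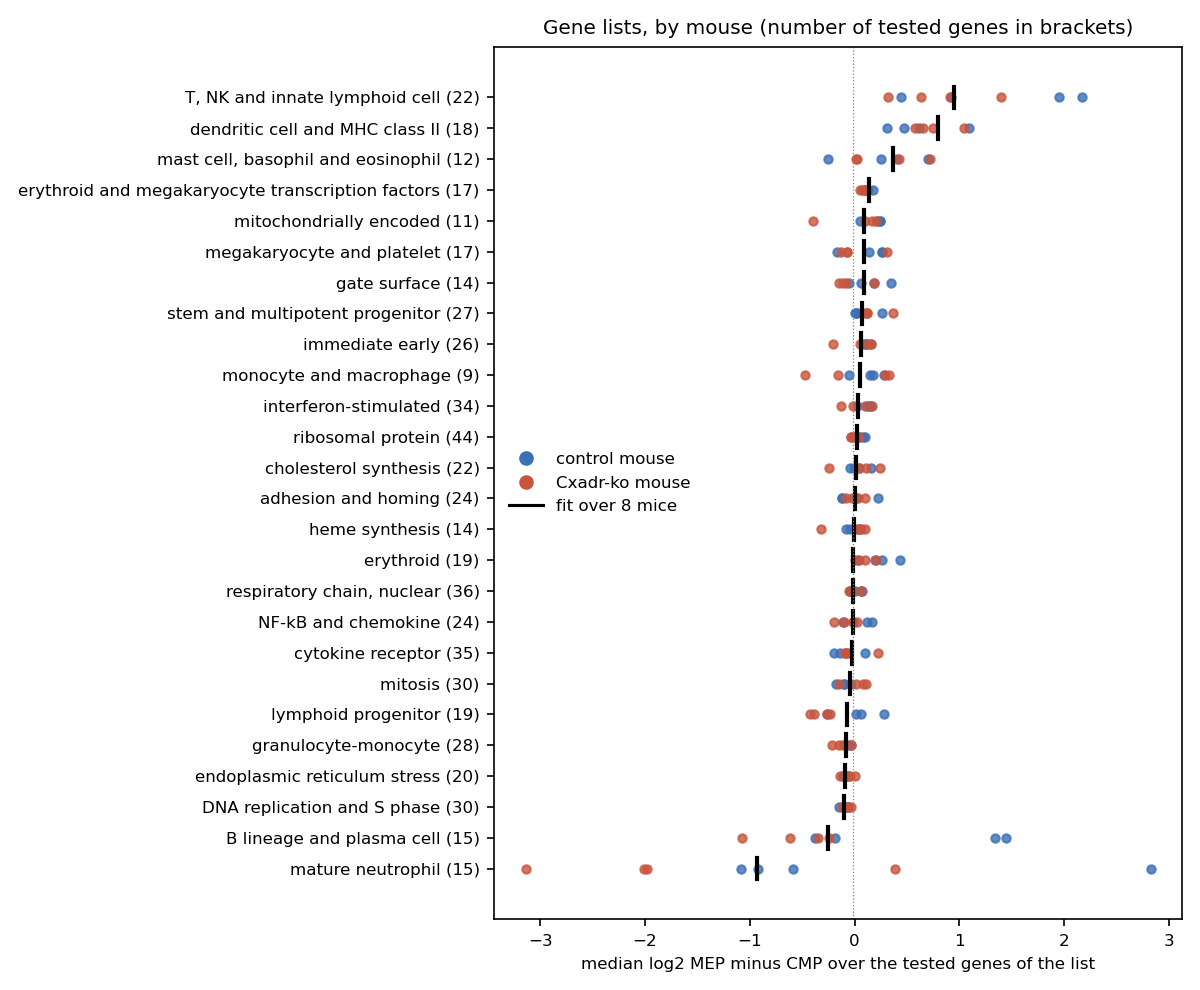
Median log2 difference (MEP minus CMP) over the tested genes of 26 lists, with 1 point per mouse and a bar for the fit over 8 mice (dotted line, all genes tested). The T and innate lymphoid list (0.95) and the dendritic and MHC class II list (0.80) are 2 of 5 lists above 0 in all 8 mice, with the erythroid list, the erythroid and megakaryocyte transcription factors and the stem cell list, whereas the neutrophil list runs from -3.14 in Cxadr-ko mouse 2 to 2.83 in control mouse 3.

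Of the surface genes that commonly define the gates, Cd34, Fcgr3, Fcgr2b and Kit differed little. Cd34 stood at 10111, 9650, 9129 and 10287 in the CMP gate of control mice and at 8876, 11579, 10053 and 10344 in Cxadr-ko mice. In MEP it stood at 8503, 7605, 7212 and 9397, and at 7979, 9581, 9351 and 9478. Every mouse was lower in MEP, at 86.4% of the CMP mean (-0.22 ± 0.03, adjusted p = 0.012). If the sort used CD34, this difference is not independent of it. Fcgr3, the gene of CD16, ran from 278 over 379 to 825 in CMP and from 312 over 371 to 543 in MEP, a log2 difference of 0.03 (-0.26 to 0.32), and its sign turned in 5 of 22 alternatives. Fcgr2b, the gene of CD32, had -0.06 (-0.31 to 0.19), and Kit had 0.02 (-0.11 to 0.16). Fcgr3 had a mean of 3993 in GMP. The genes of the Fc receptor family are similar in sequence, and shared reads may blur them. Of 14 tested surface genes 2 were called, Cd34 and Flt3, both lower in MEP, against 0.329% of all genes tested. The log2 differences of the 14 ran from -1.74 to 1.59, so not all uncalled ones were small.

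Genes of the cell cycle had small differences. Of 30 genes of DNA replication 25 had a negative difference, against 8949 of the 17032 genes tested, and the median was -0.10. Of all genes tested 0.329% were called lower in MEP. The list held 2 such genes, the helicase subunits Mcm5 (-0.25 ± 0.05, adjusted p = 0.038) and Mcm6 (-0.20 ± 0.04, adjusted p = 0.045). Each lost its call under 14 of 22 alternatives. Of 30 mitosis genes limma and edgeR called 0 and DESeq2 2 (Ccna2 and Pttg1), with 5 at an unadjusted p under 0.05, against 13.3% of all genes tested. Cyclin D2 (Ccnd2), which drives entry into the cycle, was lower in MEP by 0.20 ± 0.03 on the log2 scale (adjusted p = 0.0096).

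Further lists had 0 members called by limma and by edgeR. At an unadjusted p under 0.05, which 13.3% of all genes tested had, they had 0 of 15 mature neutrophil genes, 1 of 15 B lineage genes, 4 of 24 NF-kB and chemokine genes, 9 of 44 ribosomal protein genes, 3 of 11 mitochondrially encoded genes, 15 of 36 nuclear-encoded respiratory chain genes and 1 of 22 cholesterol synthesis genes. The share was 41.7% for the nuclear-encoded respiratory chain genes, 27.3% for the mitochondrially encoded, 20.5% for the ribosomal protein and 16.7% for the NF-kB and chemokine genes. Of the 36 respiratory chain genes 17 had a positive and 19 a negative difference (median -0.01). All 11 mitochondrially encoded genes had a positive one, as had 8083 of the 17032 genes tested. Without Cxadr-ko mouse 3, 4 of the 11 mitochondrially encoded genes were called higher in MEP, and without any other single mouse 0. DESeq2 called 4 of these genes, Ighm, Rps2, Ndufa1 and Uqcrfs1. For neutrophil genes the median was -0.93 and the mice disagreed. Among B lineage genes Ighm, the IgM heavy chain, was lower in 8 of 8 mice without passing (-0.29 ± 0.07, adjusted p = 0.088). The B and plasma cell markers summed to 865 to 9920 in CMP and 788 to 16708 in MEP, the highest in MEP of control mouse 2. Among lymphoid progenitor genes Flt3 alone was called, and Dntt, the polymerase that adds bases to antigen receptor joints, was not, at -0.39 (-0.62 to -0.15, adjusted p = 0.14). Single calls came from the immediate early list (Dusp1, 0.26 ± 0.04) and, lower in MEP, from the interferon-stimulated (Gbp3, -0.40 ± 0.07), endoplasmic reticulum (Canx, -0.13 ± 0.02) and adhesion lists (Cd44, -0.27 ± 0.05). Of all genes tested 0.429% were called higher in MEP and 0.329% lower. Outside the interferon list, the interferon-inducible genes Ifi205 (1.66 ± 0.17, limma adjusted p = 0.0009) and Ifi211 (1.36 ± 0.17, adjusted p = 0.0046) were called higher in MEP. Both were named after their values were seen. In the cytokine receptor list Il2rg, the shared chain of several interleukin receptors, was higher (0.21 ± 0.04, adjusted p = 0.0498), with Flt3 and Csf1r lower. The call of Il2rg was lost under 17 of 22 alternatives, leaving out any 1 mouse included (adjusted p 0.060 to 0.13). Those of Dusp1, Gbp3, Canx and Cd44 were lost under 9, 12, 13 and 11 of 22.

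Some of the largest differences lay outside these lists. Rab39, a small GTPase of endosome traffic, was at 0 to 14.7 normalized counts in CMP (median 4.76) and at 22.9 to 72.9 in MEP (median 43.3), without overlap. At least 1 CMP library was at 0, so its fitted log2 difference of 3.20 ± 0.55 (adjusted p = 0.027) depends on the pseudocount, and the call was lost under 10 of 20 alternatives. Chml, a Rab escort protein, had the largest difference among the 56 called genes lower in MEP, at 31.8 over 51.4 to 75.5 in CMP and 8.10 over 16.7 to 49.7 in MEP (-1.37 ± 0.26, adjusted p = 0.042), and lost its call under 14 of 20.

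The 129 genes were also placed among the 4 gates by their means. Of the 73 higher in MEP, 51 had their highest mean in MEP, 13 in LSK and 9 in GMP. Of the 56 lower in MEP, 24 had their highest mean in CMP, 19 in LSK and 13 in GMP. These counts partly follow from the choice of genes, since a gene higher in MEP than in CMP cannot have its highest mean in CMP.

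Control and Cxadr-ko mice were then fitted apart, so that they shared neither libraries nor an estimate of spread. In the 4 control mice 18 genes were called (0.106% of 17032), 16 higher (0.0939%) and 2 lower (0.0117%) in MEP, and in the 4 Cxadr-ko mice 11 were called (0.0646%), all higher. All 18 control calls had the same direction in the Cxadr-ko mice with an unadjusted p under 0.05. Over all genes 3.79% had such a p with a higher and 4.4% with a lower value in MEP. All 11 Cxadr-ko calls likewise had the same direction and an unadjusted p under 0.05 in the control mice, against 4.7% of all genes with such a p and a higher value in MEP. The 6 genes called in both were Id2, Cd74, H2-Aa, H2-Ab1, H2-Eb1 and Plbd1, which is 6 of 18 and 6 of 11. Leaving out 1 mouse gave 7 to 21 calls in control mice (7 without mouse 2 and 11 without mouse 3) and 3 to 14 in Cxadr-ko mice (5 without mouse 1 and 3 without mouse 3).

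Across genes the log2 differences of the 2 genotypes had a Pearson r of 0.14 over all 17032 genes, 0.24 over the 11747 genes with a mean of at least 50, and 0.54 over the 2310 genes with a mean of at least 1000. Genes of a library are not independent replicates, and low counts weigh on the first of these values. For the genes of lowest p the sizes in the 2 genotypes were set side by side. Id2 had 1.43 ± 0.08 in control and 1.51 ± 0.06 in Cxadr-ko mice, and the difference of the 2 was 0.08 (95% interval -0.13 to 0.28). Rora had 1.61 and 1.40 (difference -0.20, -0.85 to 0.44), Flt3 -0.54 and -0.44 (0.09, -0.20 to 0.39), and Car2 0.38 and 0.37 (-0.01, -0.21 to 0.18). H2-Aa had 1.45 in control and 1.92 in Cxadr-ko mice (0.47, -0.03 to 0.97), and H2-Ab1 1.29 and 1.77 (0.48, 0.03 to 0.92). Larger differences between genotypes, in genes named after their values were seen, were those of the interferon-inducible gene Ifi205, with 1.30 and 2.02 (0.73, 0.11 to 1.35), and of Aif1, with 1.32 and 2.21 (0.89, 0.18 to 1.59). The intervals of H2-Ab1, Ifi205 and Aif1 exclude 0 before adjustment over genes, and the limma adjusted p of each was 0.93. Of the 129 genes called in the 8 mice, 11 had an unadjusted p under 0.05 for the difference between genotypes (8.53%), against 5.16% of all genes tested.

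**Figure D5:**
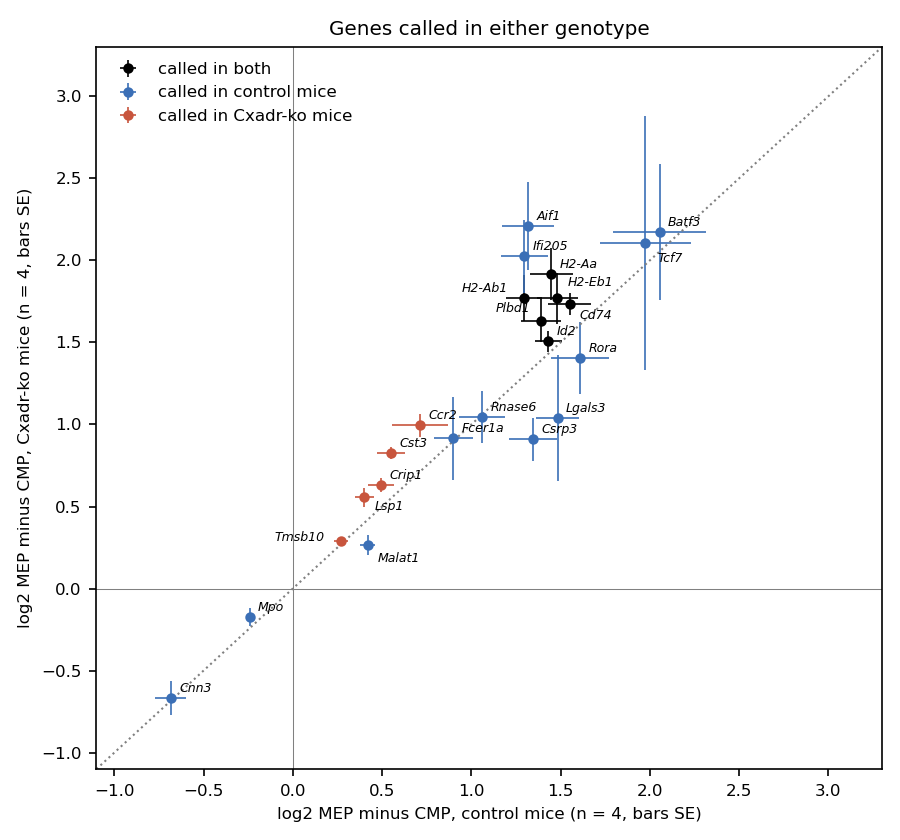
Log2 difference (MEP minus CMP) in control mice (x axis) and Cxadr-ko mice (y axis), each with its SE, for the 23 genes called in either genotype (dotted line, equal values). All 23 genes have the same sign in both genotypes, and Id2 lies at 1.43 and 1.51.

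Whether the gate difference itself differed between genotypes was tested by the gate by genotype term. With limma 0 of 17032 genes passed, 879 had an unadjusted p under 0.05 (5.16%), edgeR called 0, and DESeq2 called 6 (Fcmr, Slpi, Gm42480, Ly6d, Ly6c2 and Gcsam). Of these Gcsam, a germinal centre signalling gene, was also among the 3 genes of lowest p in limma. In the CMP gate it was at 46.0, 39.5, 29.8 and 42.8 normalized counts in control mice and 56.2, 9.92, 16.6 and 39.5 in Cxadr-ko mice. In the MEP gate it was at 67.6, 55.4, 54.7 and 44.7, and at 196, 107, 119 and 318, so that the ratio of MEP to CMP was larger in each Cxadr-ko mouse than in each control mouse. Its term was 2.22 on the log2 scale (limma adjusted p = 0.93; DESeq2 adjusted p = 0.037). Ly6c2, the gene of a monocyte surface protein, moved the other way (-1.05, DESeq2 adjusted p = 0.037, limma adjusted p = 0.93). In 4 mice per genotype a difference between genotypes was thus not called for any gene by limma or edgeR, and the intervals above give the sizes that remain possible.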

How the data were processed

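The 16 libraries, paired by animal, were grouped by the labelled cell type and genotype. The deposited signal values are gene counts after division by the authors' 1 size factor for each library. As a check, 100% of 765992 values above 0 lay within 0.001 reads of a whole multiple of 1 step per library. Per the submitters' processing notes the tools were STAR and DESeq2 and the build GRCm38 (mm10). Neither the counter, its use of strand nor the annotation is named there or in the labels. Gene coordinates are those of the deposited table, and 54821 of its 55487 genes have the same ones in GENCODE M21.

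Genes reaching 10 in 4 or more of the 16 columns were tested with limma 3.58.1 (R 4.3.3) on log2 of the value plus 1, with a variance trend, the mouse as a fixed block, two-sided, and Benjamini-Hochberg adjustment over all genes tested. Fold changes on this scale understate those of low genes. Errors are standard errors of the fit over 8 mice unless another n is given, and intervals are 95% intervals from the same fit. The gate by genotype term was fitted in the same way. edgeR 4.0.16 and DESeq2 1.42.0 were run on the recovered whole reads as alternatives. Library measures were compared by exact sign-flip permutation tests, whose smallest p with 8 pairs is 0.0078. Marker sums are not per length and compare libraries, not genes.

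The CMP and MEP libraries of a number within a genotype come from 1 animal, per the labels, so the pairing follows from the design. The correlation of their deviations from the group means was 0.07 to 0.33 over genes in the 8 mice. Numbers do not pair control with Cxadr-ko animals. Without the mouse as block the count of calls was 1 in place of 129.

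Members, the 26 gene lists (612 genes, 1 symbol without a match) and the tests were chosen with earlier results of these data known. Named genes were the 12 called genes of lowest p and the 5 of largest size in each direction, up to 4 called members of each list or 2 of lowest p, the gate surface genes, the 3 genes of lowest p for the gate by genotype term, and 12 genes taken whatever their values, such as Klf1, Mpo and Cxadr, of which the printed ones were selected. H2-DMb1, Ciita, Cd7, Ccl5, Ifi205, Ifi211, the DESeq2 calls and the genes under other observations were named after their values were seen. Alternatives were other scalings, tests, pseudocounts (0.5 and 5), filters, variance models and pairings, and leaving out mice. The fit was also run on simulated data with planted differences larger than most of those called here. That run therefore does not bear on the smaller ones.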

Additional observations from a re-analysis of the deposited data

Results flagged for a closer look

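In 134 groups of 4 samples, 12 held a value further from the rest than Dixon's 95% limit, a rule that chance meets in about 1 of 20 groups. Mouse 1 stood apart in several. The share of mitochondrially encoded reads was 1.64% in CMP and 1.67% in MEP of control mouse 1, against group medians of 2.02% and 2.37%. In Cxadr-ko mouse 1 the haemoglobin share in MEP was 0.00278% (median 0.000902%) and the immunoglobulin share in CMP 0.287% (median 0.0572%). The immunoglobulin share in MEP of control mouse 2 was 0.484% (median 0.0513%).

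Among named genes the log2 difference between gates stood apart in Cxadr-ko mouse 1 for Crip1 (0.56), in Cxadr-ko mouse 4 for Rora (2.25) and Il2rg (0.11), and in Cxadr-ko mouse 2 for Dusp1 (0.19). In control mice it stood apart in mouse 4 for Cox6a2 (-0.37), in mouse 3 for Aif1 (1.39) and in mouse 1 for Csf1r (-1.24).

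For 2 genes picked for a low p of the gate by genotype term, every Cxadr-ko mouse moved one way and every control mouse the other. The difference (Cxadr-ko minus control) was 1.25 on the log2 scale for Tmem214 and 5.19 for Magee1, which was read at 0 to 28.4 normalized counts. Both had a limma adjusted p of 0.93 for that term.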

How the results depend on the processing

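All 129 called genes that an alternative tested kept their direction under it. The 129 calls became 465 with DESeq2 (118 shared), 103 with edgeR (all shared), 54 with no filter, 28 with no variance trend, 39 with the mouse as a random effect, 1 with no replicate block, 29 without mouse 1 of both genotypes, 74 without control mouse 3 and Cxadr-ko mouse 2 (added after seeing the data) and 54 to 93 without 1 mouse. In control mice the 18 calls became 213 with DESeq2, 11 with no filter, 0 with no trend, 5 with a random effect, 2 with no block and 7 to 21 without 1 mouse. In Cxadr-ko mice the 11 became 102 with DESeq2, 17 at a mean of at least 50, 0 with no trend, a random effect or no block, 5 without mouse 1 and 3 to 14 without 1 mouse. The 0 calls between genotypes became 6 with DESeq2. Without mouse 1 the pairs CMP and GMP, and GMP and MEP, gave 1924 and 1249 calls in place of 3398 and 2489. Of 1200 values of the 55 called genes named, 338 lost their call and 0 turned. Uncalled genes near 0 turned sign, the gene Fcgr3 (-0.00577) and the gene Fcgr2b (0.0470) without mouse 1 of both genotypes and, without 1 mouse, Fcgr3 (-0.0283 to 0.150), Magee1 (-0.376 to 0.728), Kit (-0.0131 to 0.0738), Ly6a (-0.0525 to 0.333), Elane (-0.128 to 0.111) and Epor (-0.132 to 0.928). The causes were not tested. Depth limits low genes: under about 10 normalized counts single reads set the value.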

Other observations

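Further called genes outside the lists, named after their values were seen, were all higher in MEP in at least 7 of 8 mice. Marchf1, a ubiquitin ligase that removes MHC class II molecules from the surface, had a mean of 83.7 normalized counts in CMP and 196 in MEP (1.22 ± 0.15 on the log2 scale, limma adjusted p = 0.003). Slamf7, a receptor of lymphoid and myeloid cells, had 59.3 and 169 (1.60 ± 0.21). The calls included the lysosomal genes Ctsh, a cathepsin (0.74 ± 0.11), Psap, the saposin precursor (0.46 ± 0.07), and Naaa, an amidase (1.43 ± 0.26). Of the T cell receptor gamma genes Trgc1 was called, at 128 in CMP and 264 in MEP (1.22 ± 0.24), against 2.12 in GMP. Calls of small size included Tmsb4x (0.37 ± 0.05), Actb (0.19 ± 0.03) and Pfn1 (0.11 ± 0.02), of actin and its monomer-binding proteins, whereas the actin-associated Palld had 1.59.

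On the lower side Egfl7, an angiogenic factor of endothelium and stem cells, had a mean of 1059 in CMP and 849 in MEP (-0.32 ± 0.05, adjusted p = 0.027) and Cd93, a surface protein of early progenitors, 1866 and 1580 (-0.23 ± 0.04). Both were lower in 8 of 8 mice. Phgdh, the first enzyme of serine synthesis, had -0.24 ± 0.04 and Paics, an enzyme of purine synthesis, -0.16 ± 0.03.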
